A study of Homo sapiens with 6 samples.

Results

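The GADD45 family (growth arrest and DNA damage inducible 45) consists of the paralogs GADD45A, GADD45B and GADD45G, and all 3 were found by symbol among the 56638 genes of a ChIP-seq count table. The family was selected on the H3K4me3 counts of GADD45G, which had the largest increase after treatment, so the H3K4me3 change of this gene is a description and supports nothing. The table came from G401, an established malignant rhabdoid tumor cell line that is deficient for SMARCB1, cultured for 3 days with the solvent DMSO or with 3 µM MAK683. MAK683 binds EED, a subunit of the methyltransferase complex PRC2, and inhibits it. Each treatment was represented by 1 library of H3K4me3, 1 of H3K27me3 and 1 of input (chromatin sequenced without an antibody), 6 libraries in all with 13308099 to 21281877 counts. No comparison therefore had a replicate check, no test between treatments was possible, and all intervals below are exact 95% intervals that cover counting error only. SMARCB1 itself had 0 counts in both input libraries.

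GADD45 proteins are small acidic proteins without a known enzymatic activity that are induced by stress and act through their partners. They bind and activate the kinase MAP3K4 upstream of p38 and JNK, bind PCNA and the CDK inhibitor p21, disturb the CDK1-cyclin B1 complex, and have been linked to DNA repair and active DNA demethylation. GADD45A is a classical p53 target, GADD45B (also MYD118) responds to NF-kB and TGF-beta, and GADD45G (also CR6) responds to cytokines and is silenced in several tumor types. H3K4me3 marks the start of active or poised genes, whereas H3K27me3 is deposited by PRC2 and marks repressed ones. Genes that carry both are called bivalent.

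All members are short genes with 4 exons in GENCODE release 44 on GRCh37, the same build as hg19. GADD45A (ENSG00000116717) lies on chromosome 1 from 68150884 to 68154017 and spans 3.13 kb. GADD45B (ENSG00000099860) lies on chromosome 19 from 2476120 to 2478257 and spans 2.14 kb. GADD45G (ENSG00000130222) lies on chromosome 9 from 92219927 to 92221470 and spans 1.54 kb. All are on the plus strand, share no part of their span with another annotated gene, and code for 165, 160 and 159 amino acids, respectively. Since a whole gene this short lies close to its start, its count is diluted less by distant gene body than that of a long gene.

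The RefSeq promoter set (GRCh38.p14) held GADD45B and GADD45G. The 250 bases before each start are shown because the 2 genes carried different modifications in DMSO. Capitals mark the searched motifs CACGTG (an E-box), CCAAT and TATAA, which do not overlap each other here. The GC box GGGCGG was also searched and had no match. Both strands were read for each motif.
GADD45B, chr19:2475877-2476126, plus strand: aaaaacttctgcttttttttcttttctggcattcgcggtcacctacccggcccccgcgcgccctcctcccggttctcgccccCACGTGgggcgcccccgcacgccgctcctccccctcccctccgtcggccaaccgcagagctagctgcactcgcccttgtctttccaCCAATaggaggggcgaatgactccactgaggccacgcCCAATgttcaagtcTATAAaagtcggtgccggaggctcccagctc
GADD45G, chr9:89604762-89605011, plus strand: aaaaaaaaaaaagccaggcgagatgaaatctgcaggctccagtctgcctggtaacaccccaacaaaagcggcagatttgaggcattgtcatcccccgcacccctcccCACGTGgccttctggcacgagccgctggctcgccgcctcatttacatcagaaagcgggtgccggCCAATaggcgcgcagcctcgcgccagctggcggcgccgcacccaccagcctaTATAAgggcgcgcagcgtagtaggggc

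The 2 windows were alike in composition. GADD45B had 63.2% G+C and 21 CG dinucleotides, an observed to expected ratio of 0.919, and GADD45G had 61.6% and 20, a ratio of 0.853. TATAA began 31 bases before the start in GADD45B and 27 bases before it in GADD45G and was found in 18.9% of 35116 promoter windows of this length. CCAAT began 82 and 45 bases before the start in GADD45B and 79 bases before it in GADD45G, and 32.0% of windows held it. CACGTG began 168 and 143 bases before the start, and 6.34% of windows held it. The longest run shared by both windows was CCCCACGTGG, of 10 bases, which includes CACGTG and was found in 64 windows (0.182%). The motifs were chosen after the sequences were seen, and a match does not show that a factor binds.

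In DMSO, GADD45A and GADD45B carried H3K4me3 and GADD45G carried H3K27me3. For GADD45A, DMSO and MAK683 gave 1725 and 1434 counts of H3K4me3, 70 and 22 of H3K27me3, and 29 and 38 of input. For GADD45B they gave 1415 and 1251 counts of H3K4me3, 19 and 23 of H3K27me3, and 33 and 47 of input. For GADD45G they gave 32 and 224 counts of H3K4me3, 234 and 142 of H3K27me3, and 30 and 27 of input. The inputs of the 3 genes were thus alike, while the H3K4me3 counts of GADD45G in DMSO were close to its input and its H3K27me3 counts were far above it.

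**Figure D1:**
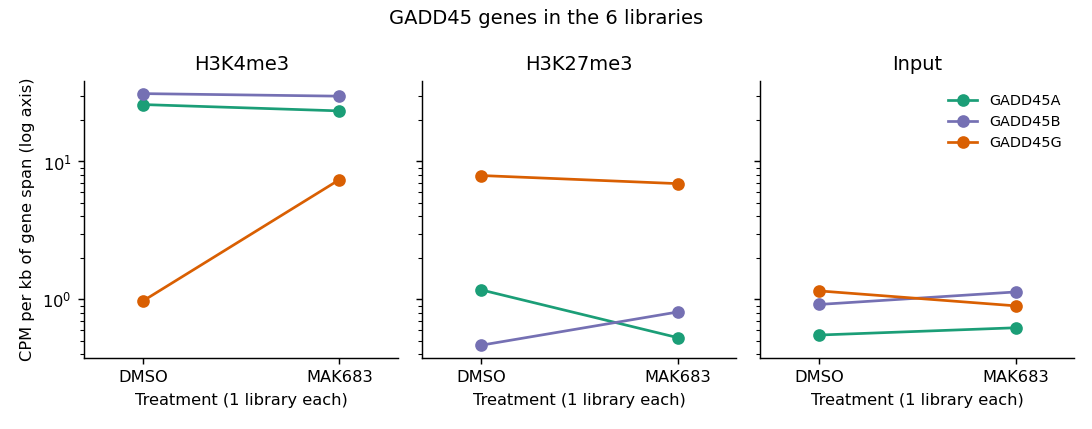
Level of the 3 GADD45 genes in CPM (counts scaled to the library total) per kb of gene span, on a log axis, in the DMSO and MAK683 library of H3K4me3, H3K27me3 and input, with 1 library per point and no error bar. In H3K4me3, GADD45G went from 0.974 to 7.39 and stayed below GADD45A and GADD45B, and in H3K27me3 it was the highest in both treatments.

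To compare levels between genes, counts were divided by the library total and the gene span. In DMSO, the H3K4me3 level was 31.1 CPM per kb at GADD45B, 25.9 at GADD45A and 0.974 at GADD45G. In MAK683 it was 29.8, 23.3 and 7.39, so the order was kept. The H3K27me3 level in DMSO was 7.91 CPM per kb at GADD45G, 1.17 at GADD45A and 0.464 at GADD45B. In MAK683 it was 6.91 at GADD45G, 0.808 at GADD45B and 0.527 at GADD45A. Input levels were between 0.55 and 1.15 CPM per kb in all cases. The depth of the libraries allowed 3 counts to be seen at 0.141 to 0.225 CPM.

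Values over input were taken in CPM on a log2 scale against both input libraries summed, which raises the number of input counts per gene to between 57 and 80. In DMSO, H3K4me3 over input was 5.42 at GADD45A (interval from 5.11 to 5.83) and 4.89 at GADD45B (interval from 4.59 to 5.26), that is 42.8-fold and 29.6-fold. These ranked 4th and 50th from the highest among 24429 genes with at least 20 counts in each input. GADD45A was thus above GADD45B over input but below it in CPM per kb, and their intervals over input overlapped. At GADD45G the value was -0.06 (interval from -0.73 to 0.59), rank 10653 of the same genes, so no H3K4me3 above input was detectable at this depth. For orientation, the median of 1137 protein-coding genes spanning 1 to 5 kb was 1.18, and that of all 24429 genes was -0.3. GADD45G thus lay above the median of all genes, and a value at input does not show that the modification was absent.

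In H3K27me3 over input in DMSO, GADD45G was the highest of the family instead of the lowest. It was 2.92 at GADD45G (interval from 2.54 to 3.41), a 7.58-fold level that ranked 37th among the 24429 genes and 25th among the 1137 short genes. At GADD45A it was 0.97 (interval from 0.48 to 1.49), rank 2864. At GADD45B it was -1.11 (interval from -1.96 to -0.41), rank 20055 and below the input. The 3 intervals did not overlap each other. Across all genes, the median was -0.75 and the 90th percentile 1.06. GADD45A therefore held a moderate H3K27me3 level beside one of the highest H3K4me3 levels in the table.

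The H3K4me3 change that chose the gene was from 32 to 224 counts at GADD45G, a log2 ratio of 2.77 (interval from 2.27 to 3.39), or 6.82-fold. The next gene in this order, taken over 22042 genes whose 2 H3K4me3 counts averaged 50 or more, was ANKRD1 with 2.73 (73 to 491 counts). MAK683 held 87.5% of the H3K4me3 counts of GADD45G (interval from 82.8% to 91.3%), against 48.0% of the library totals. In MAK683, its H3K4me3 over both inputs was 2.82 (interval from 2.44 to 3.31), rank 1108 of 24429. Among the 1137 protein-coding genes spanning 1 to 5 kb, this value was only at percentile 64.7, and the median of these genes in MAK683 was 1.38. Only GADD45G and ANKRD1 passed from below both inputs in DMSO to at least 4-fold over them in MAK683, a pair of limits set after the values were seen. The new level of GADD45G was still lower than that of its paralogs, whose values in MAK683 were 5.27 (GADD45A, rank 2) and 4.82 (GADD45B, rank 25).

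GADD45A and GADD45B held slightly fewer H3K4me3 counts after MAK683. The log2 ratio was -0.27 at GADD45A (interval from -0.37 to -0.16) and -0.18 at GADD45B (interval from -0.29 to -0.07), in libraries whose totals differed by -0.12. MAK683 held 45.4% of the counts of GADD45A (interval from 43.6% to 47.1%), below the share of the library totals. It held 46.9% of those of GADD45B (interval from 45.0% to 48.8%), which included that share. Among the 1137 short protein-coding genes, the 90th percentile of H3K4me3 over both inputs fell from 4.33 to 4.08, while the median rose from 1.18 to 1.38. GADD45A and GADD45B moved up in rank, from 4 to 2 and from 50 to 25 of 24429. Neither gene thus fell relative to other highly marked genes. Of the 3 members, 1 was at least 2-fold higher and 0 were at least 2-fold lower in H3K4me3, where 3.52% of 30028 genes past the count filter of 10 were higher and 2.5% lower. In CPM these shares were 4.1% and 1.84%, and the members' counts were the same. The gene counted as higher is the one chosen for this value.

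Between paralogs, the difference of log2 ratios does not depend on the scale between libraries, and 3 pairs were compared per modification. For H3K4me3, the ratio of GADD45G exceeded that of GADD45A by 3.04 (interval from 2.52 to 3.67) and that of GADD45B by 2.95 (interval from 2.43 to 3.58), both of which rest on the value that chose the family. GADD45B and GADD45A differed by 0.09 (interval from -0.06 to 0.24), a difference within counting error. In the input, the 3 differences were between -0.64 and 0.12, and each interval included 0.

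H3K27me3 was not used to choose the genes, and here GADD45A stood apart from the library totals while the intervals of GADD45B and GADD45G included them. At GADD45A it went from 70 to 22 counts, a log2 ratio of -1.63 (interval from -2.43 to -0.96). MAK683 held 23.9% of these counts (interval from 15.6% to 33.9%), below the 41.0% of the library totals, and the log2 ratio in CPM was -1.12 (interval from -1.91 to -0.44). Over both inputs, GADD45A went from 0.97 to -0.15 (interval in MAK683 from -0.92 to 0.56), so H3K27me3 was above input in DMSO and not in MAK683. The value in MAK683 still ranked 8322nd of 24429 genes, whose median was -0.54. It does not show that the modification was absent. Of the 3 members, 1 was thus at least 2-fold lower and 0 were at least 2-fold higher, where 9.93% of 29931 genes were lower and 1.42% higher in the counts as deposited. In CPM, 3.27% of genes were at least 2-fold lower, with GADD45A among them, and 3.87% were higher, with no member among them.

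The H3K27me3 counts of GADD45G differed between treatments about as much as the library totals did. They went from 234 to 142, a log2 ratio of -0.72 (interval from -1.03 to -0.41), while the library totals differed by -0.53 and the median of all genes was -0.44. MAK683 held 37.8% of its counts (interval from 32.8% to 42.9%), which included the share of the library totals. In CPM the log2 ratio was -0.19 (interval from -0.51 to 0.11), and with each library divided by its own input it was 0.16, the opposite sign. Over both inputs, the level in MAK683 was 2.73 (interval from 2.31 to 3.24), 6.63-fold, and ranked 28th of 24429 genes. These counts do not carry the Drosophila spike-in described in the methods, so a loss of H3K27me3 common to the genome cannot be seen in them. The paper, which scaled its ChIP-seq by this spike-in, reported massive depletion of H3K27me3 across the genome in G401 after MAK683. The level kept by GADD45G is therefore relative to other genes.

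At GADD45B, H3K27me3 was low in both treatments, with 19 and 23 counts and a log2 ratio of 0.26 (interval from -0.67 to 1.23). Over both inputs it was -1.11 in DMSO and -0.34 in MAK683 (interval from -1.09 to 0.34), so it was not above input in either. In the difference between paralogs, the log2 ratio of GADD45B exceeded that of GADD45A by 1.89 (interval from 0.73 to 3.16), and that of GADD45G exceeded that of GADD45A by 0.91 (interval from 0.17 to 1.77). GADD45G and GADD45B differed by -0.98 (interval from -2.01 to 0.00, the upper bound lying just above 0).

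Within each treatment, H3K4me3 was also set against H3K27me3 directly, both in CPM. At GADD45G the log2 of H3K4me3 over H3K27me3 was -2.98 in DMSO (interval from -3.60 to -2.48), which only 0.254% of the 24429 genes fell below. In MAK683 it was 0.10 (interval from -0.21 to 0.41), so both modifications were at the same level in CPM. At GADD45A it was 4.45 in DMSO and 5.42 in MAK683, and at GADD45B 6.0 and 5.16. In MAK683, GADD45G was thus at least 2-fold over both inputs in both modifications, as were 240 of the 24429 genes (0.982%) and 75 of the 1137 short protein-coding genes (6.6%). In DMSO, 189 genes (0.774%) were in this class, and none of the GADD45 genes was: GADD45A, at 1.96-fold in H3K27me3, lay just outside it. Over the DMSO input alone, the log2 value of GADD45A was 1.06 in H3K27me3 (interval from 0.44 to 1.76) and 5.52 in H3K4me3, which would place it inside. Bulk chromatin cannot tell whether both modifications lie on the same alleles or in different cells. Without the spike-in, the H3K27me3 level in MAK683 is known only relative to other genes. Neither the ratio of both modifications nor the number of genes rich in both can therefore be compared between treatments in absolute terms.

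GADD45G was then compared with other genes rich in H3K27me3. Among 2717 genes with H3K27me3 at least 2-fold over both inputs in DMSO, H3K27me3 had a median log2 ratio of -0.76 and 10th and 90th percentiles of -1.05 and -0.55, and the -0.72 of GADD45G was at percentile 62.7. For H3K4me3, which 2716 of these genes had enough counts for, the median was 0.10 and the 90th percentile 0.65. The median over all genes was -0.11. H3K4me3 was at least 2-fold higher at 108 of the 2716 (3.98%), against 3.52% of all genes. The latter share includes genes with as few as 10 counts and was not matched in depth. Of the 207 genes rich in H3K27me3 that were protein-coding and spanned 1 to 5 kb, 26 were at least 2-fold higher (12.6%), GADD45G included. At any H3K27me3 level, 43 of 1136 such genes were (3.79%).

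The genes closest to GADD45G were below input in H3K27me3. The nearest protein-coding gene before it, SEMA4D, which codes for a semaphorin, ended 107 kb away and had a H3K27me3 over both inputs of -0.60 in DMSO. SECISBP2 and CKS2, farther in the same direction, had -1.04 and -1.17. SEMA4D, SECISBP2 and CKS2 span 137, 41.2 and 5.51 kb, against 1.54 kb for GADD45G, and the median over all genes was -0.75. At these spans and distances, their values do not describe the sequence next to GADD45G. After GADD45G the next protein-coding gene, DIRAS2, began 1150 kb away, and there H3K27me3 over both inputs was high again (1.24, and 1.16 at SYK behind it, but -1.02 at AUH). Of 2 genes with enough input counts within 250 kb of GADD45G, 0 were above input in H3K27me3 or H3K4me3. The H3K4me3 log2 ratios of the 6 neighbors lay between -0.45 and 0.40.

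GADD45A had a neighbor rich in H3K27me3. GNG12, which codes for a G protein gamma subunit and begins 13.1 kb after GADD45A, went from 4269 counts of H3K27me3 to 2450, and from 1.17 to 0.90 over both inputs. Its log2 ratio of -0.80 was smaller in size than the -1.63 of GADD45A. The other 5 neighbors of GADD45A were 255 to 740 kb away, with H3K27me3 log2 ratios between -0.67 and -0.10. GADD45B lay in a gene-dense region where 14 genes within 250 kb had enough input counts, of which 1 was above input in H3K27me3 and 11 were above it in H3K4me3. The nearest, LMNB2 (lamin B2, 19.2 kb before) and GNG7 (33.0 kb after), had -0.93 and -1.02 in H3K27me3 over both inputs.

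Profiles of the members were compared with those of all 24429 genes by the distance over 4 log2 values, H3K4me3 and H3K27me3 over the input of the same treatment in DMSO and MAK683. GADD45A and GADD45B were 2.14 apart, and GADD45G was 7.11 and 7.47 from them. The median gene was 5.82 from GADD45G, 8.12 from GADD45A and 7.32 from GADD45B. Seen from GADD45A, GADD45G was thus nearer than the median gene, and seen from GADD45B it was about as far. Seen from GADD45G, however, the paralogs were among the farthest genes. GADD45A was 23803rd and GADD45B 24122nd in order of distance among 24428 genes. These distances include the H3K4me3 values that chose the family. Genes picked as alike match in these 4 values by construction, so their levels and changes below are descriptions. The 5 genes most like GADD45G were CXCL3 (distance 1.08), EMX2 (1.34), GSX1 (1.38), AC106786.1 (1.43) and EN2 (1.47). EMX2, GSX1 and EN2 code for homeodomain transcription factors, and CXCL3 for a chemokine with close relatives that can share reads. From DMSO to MAK683, CXCL3 went from 68 to 237 counts of H3K4me3 and from 191 to 121 of H3K27me3. EN2 went from 223 to 797 and from 532 to 270. The H3K4me3 log2 ratios of these 5 genes were between 0.77 and 1.83, and their H3K27me3 log2 ratios between -1.09 and -0.65.

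The 5 genes most like GADD45A were ZNF703 (0.867), TMEM191A (1.07), CEBPD (1.07), LBX1 (1.25) and CCNO (1.34). Their H3K27me3 log2 ratios were between -1.97 and -0.87 at high H3K4me3, which the match on these values fixed in large part. At CEBPD, which codes for a stress-responsive transcription factor, H3K27me3 went from 113 to 28 counts. The genes most like GADD45B were RP11-229C3.2 (0.214), TMUB1 (0.334), PHLDA3 (0.349), SOCS3 (0.358) and MFSD3 (0.375). Of these, PHLDA3 is a p53 target that inhibits AKT and SOCS3 is a feedback inhibitor of cytokine signaling.

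The partners and regulators of the GADD45 proteins were described as a group. A list of 36 genes covered the kinase cascade, cell cycle partners, transcriptional regulators, DNA repair and demethylation partners, and other growth arrest and stress genes, and all 36 had enough counts in both modifications. At least 2-fold changes in either direction were found at 0 of 36 in H3K4me3 and at 0 of 36 in H3K27me3, also in CPM. Over all genes, 3.52% were higher and 2.5% lower in H3K4me3, and 1.42% higher and 9.93% lower in H3K27me3. A list of this size would hold few such genes at those rates. These shares include genes with as few as 10 counts, where counting error is large, and were not matched to the list in depth. The 0 of 36 is therefore not read as a trait of the list. The median log2 ratio of H3K4me3 was -0.24 in the list (range from -0.69 to 0.35) and -0.11 over all genes. For H3K27me3, it was -0.30 (range from -0.71 to 0.46) against -0.44 over all genes. The list was not matched to all genes in H3K4me3 level, whose median over both inputs in DMSO was 0.87 against -0.3. That median was 2.84 at the cell cycle partners and 4.31 at the other growth arrest and stress genes.

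Among the kinases, MAP3K4, which GADD45 proteins bind, went from 1158 to 1119 counts of H3K4me3 and from 790 to 618 of H3K27me3. The 12 kinase genes had a median H3K4me3 log2 ratio of -0.15, and H3K27me3 counts were lower at all 12 in the smaller MAK683 library. In CPM, H3K27me3 was higher at 10 of the 12, with a median log2 ratio of 0.21 against 0.08 over all genes. On this scale most genes in the table were thus also higher, as were 29 of all 36 listed genes. The 4 cell cycle partners held fewer H3K4me3 counts after MAK683, with log2 ratios of -0.69 at CDK1, -0.63 at PCNA, -0.52 at CCNB1 and -0.34 at CDKN1A, which codes for p21. At CDK1 the counts went from 1557 to 964, and at CDKN1A from 2426 to 1913. The median of the 10 transcriptional regulators was -0.22, and EGR1, an immediate early transcription factor, had the highest ratio of the list (522 to 665 counts, 0.35). The 6 repair and demethylation partners had a median of -0.31, but ERCC5 shares nearly its whole span with another gene and its counts are uncertain. DDIT3 also shares most of its span (7.2% unshared), so its counts are uncertain too. The 4 other stress genes, among them PPP1R15A (GADD34) and DDIT3 (GADD153 or CHOP), had a median of -0.36.

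Most of the network was not above input in H3K27me3 in DMSO, which also held for most genes in the table. Above both inputs were 3 of the 36 genes, and the list median was -1.02 against -0.75 over the 24429 genes. At least 2-fold over both inputs were 1 of the 36 and 11.1% of the 24429. Over the DMSO input, the value was 0.68 at MAPK10, the JNK gene of neurons, and 0.10 at EGR1. The lowest were -1.74 at PCNA, -1.67 at DDIT3 and -1.52 at ERCC5, the latter pair being the genes with shared spans. MAPK10 went from 9898 to 6444 counts of H3K27me3 and from 3205 to 3449 of H3K4me3, and its H3K4me3 stayed below both inputs (-1.12 and -0.90).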

How the data were processed

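Raw counts per gene were deposited by the authors, made with Trim Galore 0.4.4 (trimming), Bowtie2 (alignment, hg19), Picard 2.23.6 (depletion of repeat sequences) and featureCounts, per their processing notes and methods. The annotation, the part of a gene counted and the handling of reads that map to several genes are not given in the sources used here. The deposited counts are not scaled by the spike-in.

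Log2 ratios used the counts as deposited plus 1, for genes that reached 10 counts in at least 1 library of the pair. CPM values used a pseudocount of 0.05 CPM. Intervals of ratios are Clopper-Pearson, and those of differences between paralogs are exact conditional intervals of the odds ratio (scipy 1.17.1, Python 3.11.15). The estimators were tested on simulated counts. Spans came from GENCODE release 44 on GRCh37, matched for 33514 genes by symbol and 1781 by an older symbol.

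Named genes were the members, network genes changed at least 2-fold or at the 3 highest and 3 lowest H3K27me3 values over the DMSO input, the 3 nearest protein-coding genes with counts on each side, the 5 genes nearest in profile, and the gene next to GADD45G in H3K4me3 increase. Other network genes were named after their values were seen. Members and lists were chosen with earlier results of these data known. The scale between libraries, the pseudocount, the input used and the count filter were varied. A gene that this rule names is not reported here.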

Additional observations from a re-analysis of the deposited data

How the results depend on the processing

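Of 106 values recomputed under an alternative, 90 stayed within the counting interval of the main value (or, for counts of network genes, at the same count), 15 moved outside it and 1 turned its direction. For levels over input, the main value here was that over the input of the same treatment. The values over both inputs summed, given above, were an alternative. The scale between libraries mattered most for small changes. In CPM and relative to the median of all genes, the H3K4me3 log2 ratio was -0.15 at GADD45A and -0.06 at GADD45B under both. For H3K27me3 at GADD45G it was -0.19 in CPM, -0.29 with median-of-ratios scaling and -0.28 relative to the median of all genes, and it turned to 0.16 when divided by the input ratio, which rests on 30 and 27 input counts. The same division gave -0.35 for H3K4me3 at GADD45B and 3.59 for the H3K4me3 difference of GADD45G minus GADD45B. A pseudocount of 1 CPM, close to the input level of these genes, lowered levels over the input of the same treatment. In DMSO, H3K4me3 went from 5.52 to 4.91 (GADD45A) and from 5.05 to 4.51 (GADD45B). In MAK683, it went from 5.19 to 4.65 (GADD45A), from 4.7 to 4.25 (GADD45B) and from 3.0 to 2.38 (GADD45G). H3K27me3 at GADD45G in MAK683 went from 2.9 to 2.29. No paired analysis was possible because each group held 1 library, and no replicate could be left out. With 19 to 80 counts behind the lowest H3K27me3 and input values, depth limits the changes of GADD45A and GADD45B in H3K27me3 more than those in H3K4me3.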
